A study of Mus musculus with 2 samples.

Results

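Interferon-stimulated genes are the genes that cells turn on when an interferon reaches them. A list of 35 such genes was followed in salivary gland epithelial cells of young and aged mice, out of 36866 gene names on the array. The 35 genes were chosen by name as common interferon targets, covering antiviral effectors, sensors of viral nucleic acid and the transcription factors of the pathway. Submandibular gland cells were collected with magnetic beads against EpCAM, a surface protein of epithelial cells, from C57BL/6 females (named C57BL/6N in the methods). The young cells came from an age of 9 weeks and the aged cells from 24 months. The design text gives an N of 1 for each age, and whether an array held cells pooled from several animals is not otherwise given. With 1 array each, values are given with the error of the scanner software, which covers the measurement of a spot and not the spread between animals. The methods name a commercial breeder for the young mice and the animal facility of the institute for the aged mice, so age and source cannot be told apart. The glands were digested with collagenase and hyaluronidase before the sort.

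Type I interferons bind the receptor chains IFNAR1 and IFNAR2, and the kinases JAK1 and TYK2 then phosphorylate STAT proteins. STAT2 and IRF9 are parts of the complex ISGF3, which binds the interferon-stimulated response element (ISRE) in the promoters of its target genes. Interferon gamma acts through another promoter element, the gamma-activated sequence (GAS). In salivary glands the pathway is known above all from Sjögren's syndrome, in which many patients show raised levels of interferon-stimulated genes.

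The promoters of the listed genes are shown first. The choice by name did not search for the ISRE, but the element is known from such interferon targets. Its share below therefore describes the list and is not independent of the choice. RefSeq promoters (build GRCm38.p6, 250 bases before to 50 after the gene start) were at hand for 26 of the 35 genes. Those of Oas2, Mx1, Mx2, Rtp4, Ifi27l2a, Parp14, Zbp1, Usp18 and Dhx58 were not analysed here. The core of the ISRE was searched on both strands as GAAANNGAAA, allowing overlaps, and was present in 15 of the 26 promoters (57.7%). Over all 27025 genes with a promoter in the same table, it was present in 1079 (3.99%). The GAS core TTCNNNGAA, which reads the same on both strands, was present in 7 of the 26 (26.9%) and in 9.55% of all genes. These are matches of letters and not evidence of binding.

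The stretches below lie before the gene start and run 5′ to 3′ along the gene, with the matches to the ISRE core, on either strand, in capitals. Isg15 holds 3 overlapping matches, Ifit1 holds 2 that are set apart, and Gbp2, Rsad2 and Stat2 hold 1 each. Oas1a and its neighbour Oas1g hold the same overlapping pair, and so does Apol9a, an interferon target outside the list of 35. The places are chr4:156200860-156200911 (minus strand) for Isg15, chr19:34640770-34640828 (plus) for Ifit1, chr3:142620589-142620628 (plus) for Gbp2, chr12:26456548-26456587 (minus) for Rsad2, chr10:128270261-128270300 (plus) for Stat2, chr5:120907526-120907560 (minus) for Oas1a, chr5:120887614-120887646 (minus) for Oas1g and chr15:77411109-77411154 (minus) for Apol9a.
Isg15: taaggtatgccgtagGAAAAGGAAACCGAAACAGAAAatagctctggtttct
Ifit1: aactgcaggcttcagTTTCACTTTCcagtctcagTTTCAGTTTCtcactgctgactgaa
Gbp2: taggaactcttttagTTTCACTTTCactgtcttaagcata
Rsad2: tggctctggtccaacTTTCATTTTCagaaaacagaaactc
Stat2: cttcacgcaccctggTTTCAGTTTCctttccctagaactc
Oas1a: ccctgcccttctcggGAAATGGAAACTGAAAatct
Oas1g: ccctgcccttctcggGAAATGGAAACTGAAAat
Apol9a: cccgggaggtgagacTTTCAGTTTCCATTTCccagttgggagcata

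Of 59305 spots that are not controls, 32875 (55.4%) of the young and 30111 (50.8%) of the aged array were marked by the scanner software as well above background. Paired signals are given throughout with the young array first and the aged array second. Levels are log2 of the processed spot signal over the 75th percentile of the array, which was 256 (young) and 198 (aged). Equal signals on both arrays therefore correspond to a log2 difference of 0.37, and every difference below is aged minus young after this scaling. A gene was kept if 1 or both arrays held a probe of it that was well above background, and its brightest kept probe stood for it. Where only 1 array was well above background, the difference is a limit, measured against the dim value itself or, if higher, the lowest signal that the software still marked on the dim array.

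Among the epithelial markers, Epcam had signals of 1778 and 1573, Cdh1 of 2423 and 1953 and Krt8 of 36987 and 29215. All 9 macrophage markers and 5 of the 6 general leukocyte markers were also well above background on both arrays. The macrophage markers had differences of -1.88 to -0.62, and the sum of their signals was 15791 (young) and 6577 (aged). All 9 stayed below 0 under each of the 7 scalings tried. In such bulk RNA, fewer cells of a type and less RNA per cell cannot be told apart.

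The list of 35 stood close to level between the ages. Of the 35 genes, 32 were well above background on both arrays, Mx1 only on the young array, and Ifit2 and Oas3 on neither. Among the 33 kept genes, 1 was higher by 2-fold or more in the aged cells (3.03%), Oas1a, against 538 of all 21284 kept genes, a share of 2.53%. Lower by 2-fold or more was also 1 of 33 (3.03%), Mx1 by its limit, against 1094 of all kept genes, a share of 5.14%. Both shares of the list were near the background shares. The balance of all genes depended on the scaling, with 33.0% of the called genes higher as described, 48.0% with centring on the median and 17.9% with the spike-in controls as reference.

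The median difference of the 32 genes measured on both arrays was -0.05, with quartiles of -0.30 and 0.18. Over all 18693 genes measured on both arrays the median was 0.09, with quartiles of -0.17 and 0.34, so the list stood 0.14 below all genes. Of the 32 genes, 16 lay above 0 and 16 below, and 19 lay below the median of all genes. Differences were under 0.5 in size for 26 of the 32. The counts under 0.5 and on either side of 0 were not made over all genes, and are not read as a trait of the list.

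**Figure D1:**
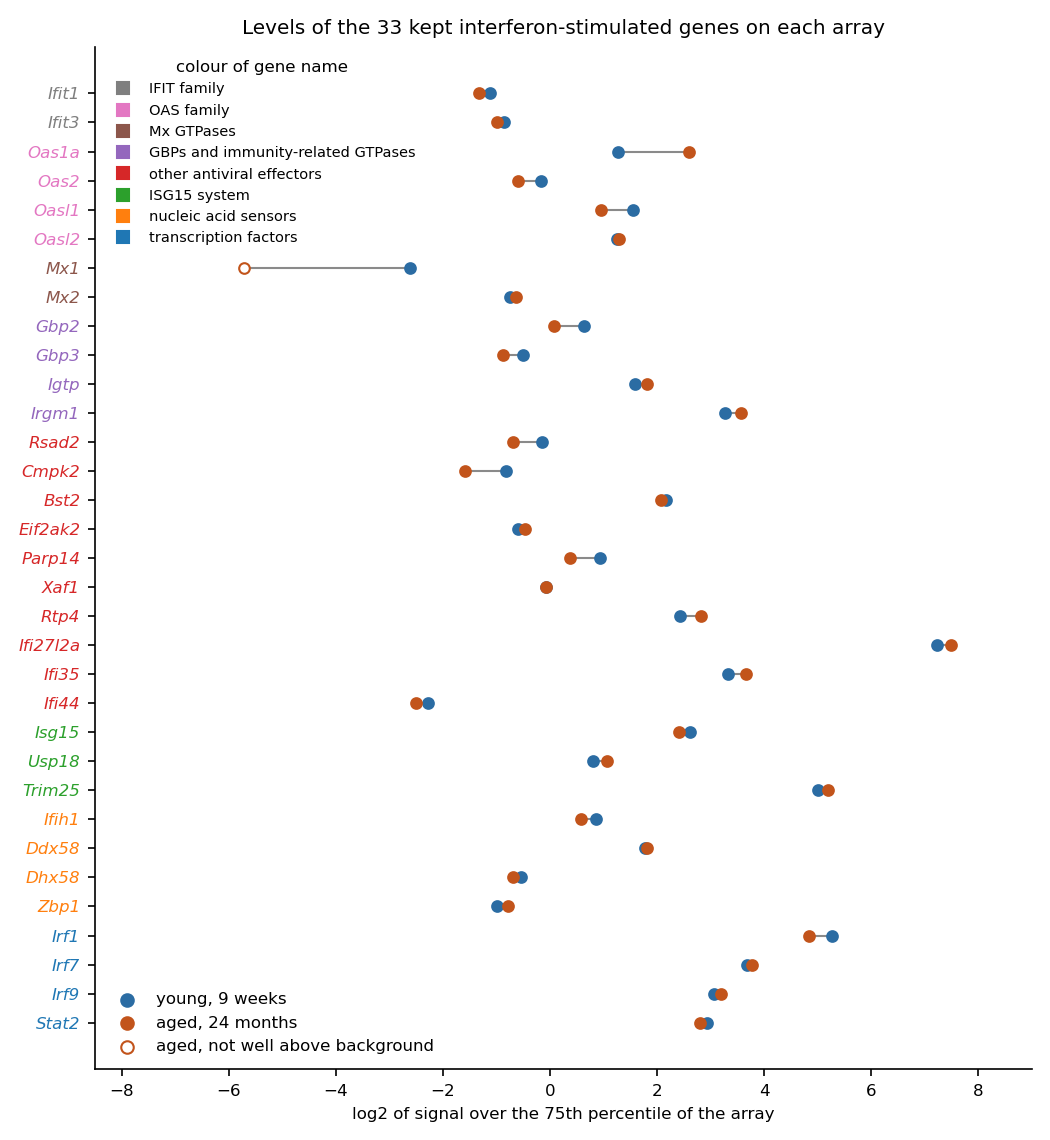
Log2 level of the brightest probe (signal over the 75th percentile of the array) of each of the 33 kept genes on the young (blue) and aged (orange) array, with gene names coloured by role. The pairs of points lie close together for most genes, Oas1a was higher on the aged array, and the open point of Mx1 was not well above background. Distances within a gene can be read from the plot, and positions of different genes cannot be compared because they come from different probes.

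Centring on the median moved the median of all genes to 0.27 and the spike-in controls moved it to -0.16, so the sign of a small difference depended on the scaling. Under the 7 scalings tried, 4 genes stayed above 0 (Oas1a, Rtp4, Ifi35 and Usp18), 12 stayed below 0 and 17 changed sign. The 12 include Mx1, whose limit could not change sign by the way limits are set. The same count was not made over all genes, so these counts have no background share and are not read as a trait of the list. The distance of the list from all genes was -0.17 to -0.14 over the 7 scalings. The 75th percentile over all or bright probes, median centring and the spike-in controls shift all genes equally. They therefore could not change the distance from -0.14. Quantile, loess and normexp could change it, and gave -0.15, -0.17 and -0.14.

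**Figure D2:**
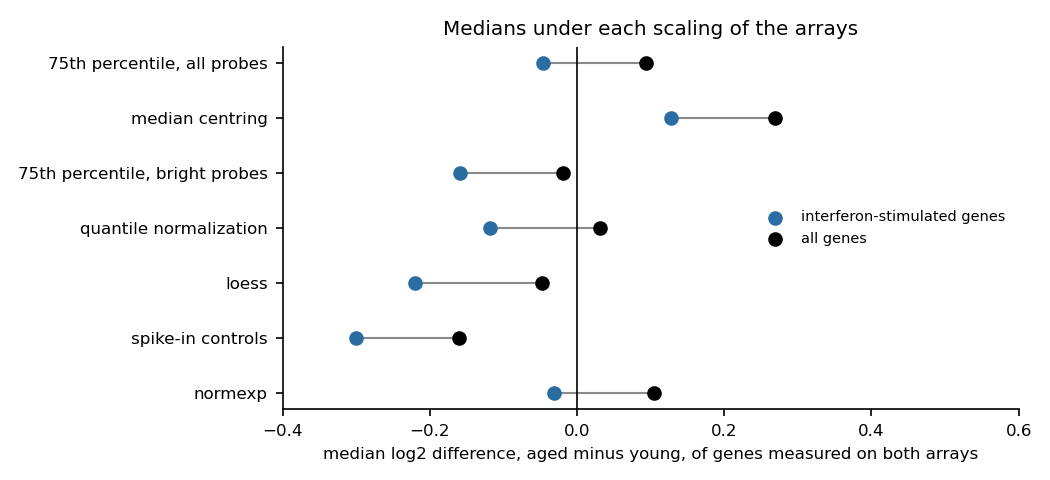
Median log2 difference (aged minus young) of the 32 interferon-stimulated genes and of all genes measured on both arrays, under each of 7 scalings of the arrays. The blue points lie 0.14 to 0.17 to the left of the black ones. Only quantile, loess and normexp could change this distance, since the other scalings shift all genes equally.

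Of the 32 genes measured on both arrays, 8 differed by more than 2 software errors, 7 of them lower on the aged array (Cmpk2, Oasl1, Parp14, Gbp2, Rsad2, Irf1 and Oas2) and 1 higher (Oas1a). These are shares of 21.9% and 3.13%, against 10.5% lower and 17.4% higher among all 18693 genes measured on both. The balance changed with the scaling, since median centring gave 2 lower and 6 higher, against 6.39% and 32.0% of all genes, and the spike-in controls gave 11 and 1, against 23.0% and 5.45%. The median error was 0.20. Repeated spots of the same probe, which occurred for 271 probes well above background on both arrays, had a median SD of the difference of 0.03. The 12 genes that stayed below 0 under all 7 scalings were the 7 lower genes named first, with Ifit1, Mx1, Gbp3, Isg15 and Ifih1. For Mx1 the sign was fixed by the way limits are set.

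**Figure D3:**
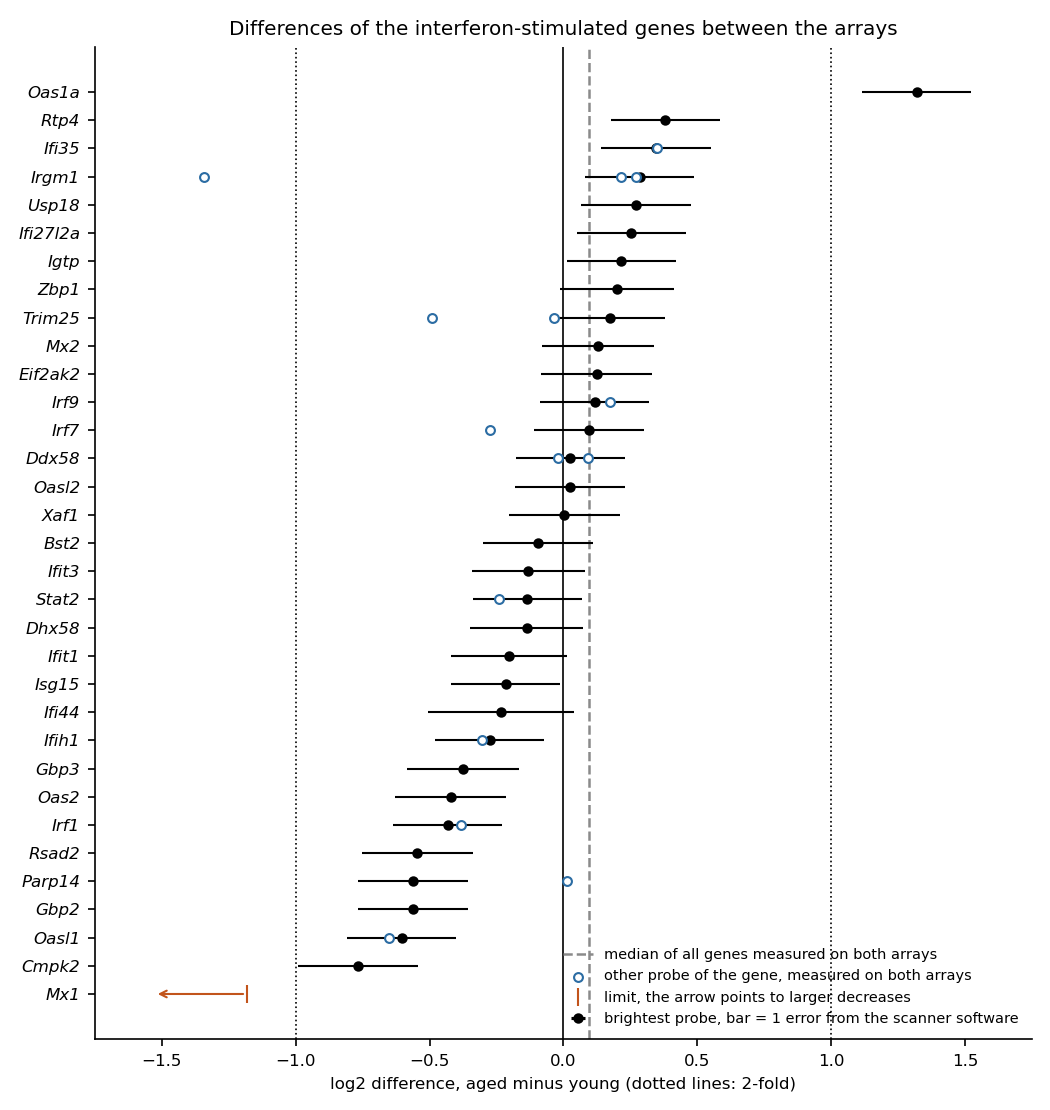
Log2 difference (aged minus young) of each kept gene, with 1 software error as the bar, other probes of the same gene as open circles and the limit of Mx1 as an arrow. Oas1a alone lies to the right of the 2-fold line at 1.32, and most other genes lie within 0.5 of 0.

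Oas1a, one of the oligoadenylate synthetases that answer double-stranded RNA, was the gene that differed most upward. Its signals were 617 ± 61.7 and 1189 ± 119 (software error). The log2 difference was 1.32 ± 0.20, or 2.49-fold. It was at least 2-fold higher under all 7 scalings, at 1.06 to 1.49.

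The Oas1a probe does not separate Oas1a from a close relative. The files match it to RefSeq transcripts of both Oas1a and Oas1g. Oas1f, the gene that came out with nearly the same difference, has a probe of related sequence. The first 30 of the 60 bases of these probes are given here 5′ to 3′, with the longest stretch that the Oas1a and Oas1f probes share, 14 bases, in capitals. In the coordinates of the files (NCBI37, mm9) the whole probes lie at chr5:121346735-121346794 (minus strand, Oas1a), chr5:121307929-121307988 (plus, Oas1f) and chr5:121332000-121332059 (minus, Oas1g).
Oas1a probe: TGTCCACCTGTTGGaaggttctgtctgaca
Oas1f probe: ccTGTCCACCTGTTGGgaggttctgtccaa
Oas1g probe: gaagcctaatcccttaatctacaccatcct
Over their full length the Oas1a and Oas1f probes were 15 single-base edits apart. The Oas1a and Oas1g probes were 37 apart, with no shared stretch longer than 6 bases.

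Oas1f had signals of 321 and 628, a difference of 1.34 ± 0.20 that was at least 2-fold under all 7 scalings. Oas1g had dim signals of 23.1 and 37.4, a difference of 1.07 ± 0.34 that passed 2-fold under 4 of the 7 scalings. The other genes of the cluster on chromosome 5 did not reach 2-fold. Oas1b, which is truncated in C57BL/6 mice, had signals of 6249 and 5308, a difference of 0.14, and its second measured probe gave 0.56. Oas1d gave 0.44, Oas1e 0.00 and Oas1c -0.40, and Oas1h was at background on both.

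Oas2 had signals of 228 and 132, a difference of -0.42, and Oas3 was not well above background at 7.91 and 3.71. The OAS-like genes lie elsewhere on chromosome 5. Oasl1, which restrains the translation of Irf7, had signals of 751 and 382, a difference of -0.60, and a second probe gave -0.65. Oasl2 had signals of 611 and 481, a difference of 0.03. Values past 2-fold were found for Oas1a, Oas1f and Oas1g and for no other measured gene of the OAS family.

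**Figure D4:**
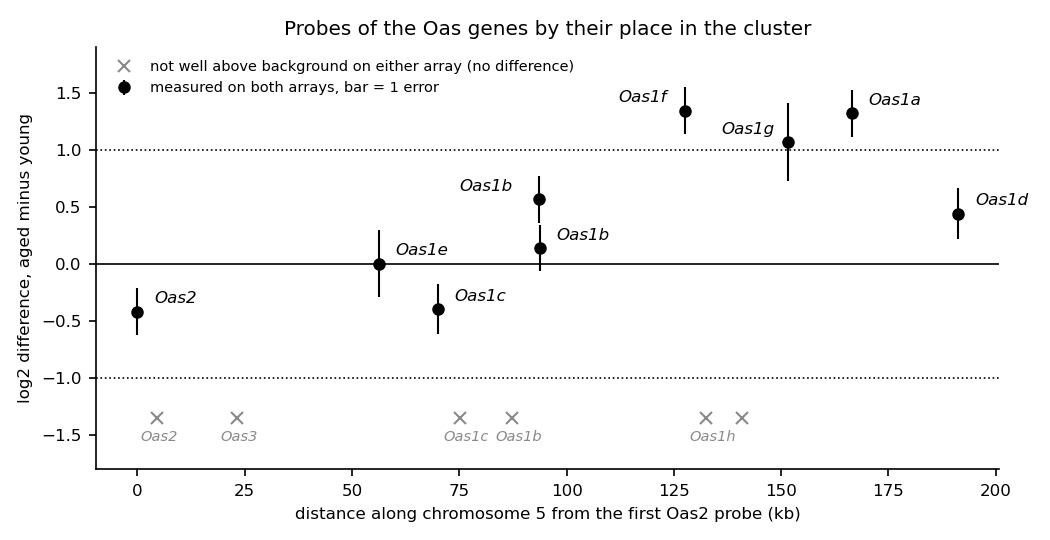
Log2 difference (aged minus young) of each probe of the Oas1, Oas2 and Oas3 genes against its distance along chromosome 5 in kb, with 1 software error as the bar. Oas1f, Oas1g and Oas1a lie above the 2-fold line, Oas1b, Oas1d and Oas1e between 0.00 and 0.56, and Oas1c and Oas2 near -0.4. Crosses mark probes at background on both arrays.

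Mx1 encodes a GTPase that blocks influenza virus, and its copy in C57BL/6 mice carries a deletion that leaves no working protein. Its signals were 41.9 ± 5.63 and 3.79, the latter not well above background. The limit was -1.18, so Mx1 was at least 2.27-fold lower in the aged cells. A second Mx1 probe stayed at background, with 3.14 and 3.16. The brighter probe lies at chr16:97668644-97668703 (minus strand, mm9) and begins as follows.
Mx1 probe: actttccaaggaaactggacgtttccactt
Under normexp, another background correction, the limit was -0.20 and no longer 2-fold. Mx2, the neighbouring gene, had signals of 152 and 128, a difference of 0.13.

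The IFIT proteins bind viral RNA that lacks the cap of host mRNA. Ifit1 had signals of 118 ± 12.2 and 79.0 ± 8.60, a difference of -0.20. Ifit3 had signals of 141 and 99.4, a difference of -0.13. Both differences were smaller than 1 software error. Ifit2 was not well above background, at 8.57 and 2.96, and has no difference.

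The transcription factors that carry the signal were close to level. Irf9, the DNA-binding subunit of ISGF3, had signals of 2153 ± 215 and 1803 ± 180, a difference of 0.12 ± 0.20, and a second probe gave 0.17. Stat2, its partner, had signals of 1952 ± 195 and 1373 ± 137, a difference of -0.14 ± 0.20, and a second probe gave -0.24. Irf7, which amplifies the production of interferon alpha, had signals of 3260 ± 326 and 2691 ± 269, a difference of 0.10 ± 0.20. A dimmer Irf7 probe, with signals of 165 and 106, gave -0.28. The differences of all 3 genes changed sign between scalings.

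The probes of these factors lie at chr14:56228806-56228865 (plus strand) for Irf9, chr10:127729834-127729893 (plus) for Stat2 and chr7:148449104-148449163 (minus) for Irf7, in mm9. Their first 30 bases are printed so that the transcripts measured can be traced.
Irf9 probe: gtcatggaccctaaacctttagaaatgtga
Stat2 probe: ctgaatagttagaaagaactgttgtcctga
Irf7 probe: catcgaacacttcctcatggacctgggtca
Irf1, an early target of interferon gamma that in turn induces many GBP and MHC genes, was the transcription factor that stood apart. Its signals were 9893 ± 989 and 5668 ± 567, a difference of -0.43 ± 0.20. A second probe of Irf1 gave -0.38.

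Genes that answer interferon gamma strongly were not uniform. Gbp2, a guanylate-binding protein that coats the vacuoles of intracellular pathogens, had signals of 400 and 209, a difference of -0.56. Gbp3 of the same family had signals of 180 and 107, a difference of -0.38. Igtp and Irgm1, the immunity-related GTPases of the list, lay on the other side of 0 as scaled here. Both changed sign between scalings. Igtp had signals of 769 and 691, a difference of 0.22, and Irgm1 had signals of 2480 and 2334, a difference of 0.28. A further pair of Irgm1 probes gave 0.22 and 0.27, and a dim probe assigned to another Irgm1 transcript gave -1.34, from signals of 78.7 and 24.0. Outside the list, the immunity-related GTPases Iigp1, Ifi47, Irgm2 and Tgtp2 gave -0.63, -0.23, -0.10 and -0.05. Of the guanylate-binding proteins outside the list, Gbp10 gave 0.71 from dim signals of 46.8 and 59.3, and Gbp6 gave 0.02. Gbp5 gave -0.27 and Gbp7 -0.53. Gbp4 and Gbp11 were well above background only on the young array, with limits of -0.49 and -0.29. Both families thus held values on each side of 0, but of the guanylate-binding proteins only Gbp10 and Gbp6 lay above 0 as scaled here.

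Among the other antiviral effectors, Cmpk2, Parp14 and Rsad2 were the lowest. Rsad2 encodes viperin, which turns CTP into a chain terminator of viral RNA synthesis, and Cmpk2, its neighbour in the genome, encodes a nucleotide kinase. Cmpk2 had signals of 145 ± 15.0 and 65.9 ± 7.58, a difference of -0.77 ± 0.22, the lowest of the genes measured on both arrays, and it passed 2-fold only with the spike-in controls as reference, at -1.02. Rsad2 had signals of 231 and 122, a difference of -0.54. A second Rsad2 probe was well above background only on the young array and gave a limit of -1.30. Parp14, an ADP-ribosyltransferase, had signals of 490 and 257, a difference of -0.56, while a dimmer probe gave 0.01.

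The remaining effectors were between -0.23 and 0.38. Bst2 (tetherin, which holds budding virions at the cell surface) gave -0.09, and Eif2ak2 (PKR, which halts translation on double-stranded RNA) gave 0.12. Xaf1, an antagonist of the apoptosis inhibitor XIAP, gave 0.00. Rtp4, a chaperone of cell surface receptors with antiviral activity, had signals of 1384 and 1392, a difference of 0.38. Ifi35 had signals of 2561 and 2515, a difference of 0.35, the same as from its second probe. Ifi44 gave -0.23 from dim signals of 53.1 and 34.9.

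Ifi27l2a had signals of 38332 and 35296, a difference of 0.25. Its second probe, assigned to another transcript, was well above background only on the young array and gave a limit of -1.03. Counting a gene as lower when any of its kept probes was lower raised the count of lower genes from 1 to 4, by Irgm1, Rsad2 and Ifi27l2a. The same rule gave a share of 6.37% lower over all kept genes, against 5.14% by the brightest probe.

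Isg15 encodes a ubiquitin-like protein that is attached to other proteins during the interferon response. Its signals were 1577 and 1049, a difference of -0.22. Usp18, which removes Isg15 and dampens signalling at IFNAR2, had signals of 444 and 414, a difference of 0.27. Trim25, a ubiquitin ligase that acts on the RIG-I pathway, depended on the probe. The brightest probe, which the files assign to an Ensembl transcript, gave 0.17, and the brighter of its RefSeq probes, with signals of 2171 and 1193, gave -0.49.

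The sensors of viral nucleic acid were near level. Ifih1 (MDA5) had signals of 462 and 295, a difference of -0.28, and its second probe gave -0.30. Ddx58 (RIG-I) had signals of 878 and 691, a difference of 0.03, and its further measured probes gave -0.02 and 0.09. Dhx58 (LGP2), a regulator of both, gave -0.14. Zbp1, which senses nucleic acid in the Z form and can start necroptosis, gave 0.20, while a dim second probe gave a limit of -0.79.

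Over all 35 genes there were 61 probes, of which 47 were well above background on both arrays. In 11 genes more than 1 probe was measured on both arrays. Their probes lay within 0.1 of each other in 5 genes, between 0.1 and 0.3 in Ddx58 and Stat2, and further apart in Irf7, Parp14, Trim25 and Irgm1. For 15 genes, Oas1a among them, the array had a single probe. Of the genes measured on both arrays, the 14 with the ISRE core in the promoter had a median difference of -0.13 (range -0.56 to 1.32), and the 10 whose promoter lacked it had 0.01 (range -0.77 to 0.35).

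Upstream of these targets, the interferons themselves were mostly below detection. Of 18 interferon genes with a probe, 12 were at background on both arrays, Ifnb1 and Ifng among them. Ifnl3 had dim signals of 88.9 and 58.1, a difference of -0.24. Ifna14 gave 0.37 from signals of 44.0 and 44.0. Ifna5, Ifna9 and Ifnab gave 0.05 to 0.16, all from dim signals, and Ifna1 was well above background only on the aged array, with a limit of 0.69.

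Receptor genes were lower on the aged array in 5 of 6 cases, none by 2-fold, and Il10rb among these changed sign with the scaling, as did Ifnar2, the exception. Ifnar1 had signals of 1851 ± 185 and 918 ± 91.9, a difference of -0.64 ± 0.20, and its further measured probes gave -0.49 and -0.56. Ifnar2, the other chain of the type I receptor, had signals of 791 and 714, a difference of 0.22. The chains of the interferon gamma receptor gave -0.54 (Ifngr1, signals of 708 and 377) and -0.75 (Ifngr2, signals of 295 and 136). Ifngr2 passed 2-fold only with the spike-in controls as reference, at -1.01. Of the lambda receptor, Ifnlr1 gave -0.39 and Il10rb gave -0.12.

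The kinases and STATs had a median difference of -0.17. Jak1 gave -0.03, Tyk2 -0.41 and Jak2 -0.51. Stat3 gave 0.02, Stat5a 0.33, Stat5b -0.16 and Stat6 -0.18. Jak1, Stat3, Stat5a and Stat5b changed sign between scalings. Of 10 negative regulators none passed 2-fold, with values from -0.32 for Pias1, a SUMO ligase, to 0.56 for Ptpn1, a tyrosine phosphatase. Socs1 gave 0.40 and Socs3 gave 0.11.

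Counting interferons, receptors, kinases, regulators, sensing genes and further interferon targets, 143 other genes of the pathway had a probe and 122 were kept. In the aged cells, 4 of them (3.28%) were higher by 2-fold or more and 9 (7.38%) lower, against 2.53% and 5.14% of all genes. The other higher genes beside Oas1f and Oas1g were Apol9a and Apol9b, a pair of apolipoprotein L genes. Apol9a had signals of 697 and 1096, a difference of 1.03 that passed 2-fold under 2 of the 7 scalings. Apol9b had signals of 524 and 883, a difference of 1.13 that passed under 4. The promoters of Apol9a and Apol9b are nearly alike, sharing a stretch of 231 bases, and whether the probes separate their transcripts was not tested.

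The 9 lower genes lay among the genes of sensing and induction and the further interferon targets. Ifi204, a DNA-binding protein of the HIN-200 family, had signals of 1112 ± 111 and 265 ± 26.7, a difference of -1.70 ± 0.20, and its second probe gave -1.66. Ifi205 of the same family gave -1.52. Mb21d1 (cGAS), the cytosolic DNA sensor that feeds STING, had signals of 91.9 and 25.5, a difference of -1.48. Ifi204 and Phf11b (-1.43) were lower by 2-fold under all 7 scalings, while Ifi205 and Mb21d1 missed it under normexp.

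Lgals9 (galectin-9) gave -1.42. Slfn1, Ifitm6 and the transcription factor Irf4 were well above background only on the young array, with limits of -2.40, -1.92 and -1.61. All 4 missed 2-fold under normexp. Irf8, a transcription factor of myeloid cells, had signals of 424 and 165 and lay just inside the threshold at -0.99.

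Several of these 9 genes are known for expression in leukocytes, and leukocyte and macrophage markers moved the same way. Of the 9 macrophage markers 7 were at least 2-fold lower (Adgre1 -1.36, C1qc -1.41, Mrc1 -1.88), with 0 of 9 higher. Of the 6 general leukocyte markers, 4 were at least 2-fold lower (Cd52 -1.83), while Ptprc gave -0.21 and Lcp1 -0.11. Of the dendritic cell markers, Itgax gave -1.64 and Cd209a a limit of -3.37. The part of these cells in the lower values of the interferon genes was not tested. The 8 epithelial markers measured on both arrays had a median of 0.13, with 0 of the 9 kept markers past 2-fold.

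**Figure D5:**
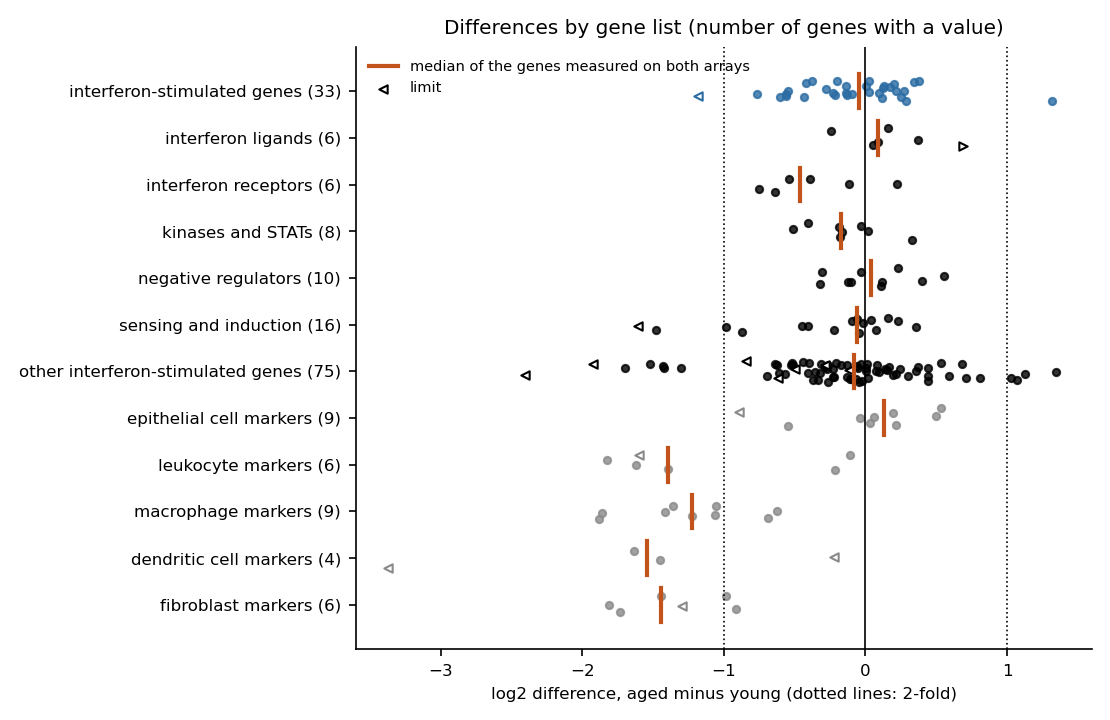
Log2 difference (aged minus young) of each gene in the list of 35, in the other lists of the interferon pathway and in marker lists, with the median of the genes measured on both arrays as an orange bar and limits as open triangles. The 35 genes and the epithelial markers centre near 0 (-0.05 and 0.13), the receptors at -0.46 and the macrophage markers at -1.23.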

How the data were processed

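RNA of EpCAM-selected cells, labelled with Cy3, was hybridized by the authors to Agilent 8 x 60K mouse arrays, 1 per age. The deposited scanner files (Feature Extraction 12.0.3.1, per the labels) hold the processed intensity of each spot, with background subtracted and no scaling between arrays. The authors' deposited table holds the ratio of these intensities to 1 constant per array (229 and 176). All spots followed it within 0.0041%. Here, log2 of the processed intensity minus that of the 75th percentile of the 59305 spots that are not controls was used. Spots marked as outliers (90 and 93) were left out, and no spot was saturated. The 2-fold threshold is that of the study's methods. A single array stood for each age, so no test was made. The members and lists were chosen with earlier results of these data known. All 35 genes were to be named. Full values and probe sequences were given for genes past 2-fold and for Irf7, Irf9 and Stat2, and of the other lists the receptors, kinases, STATs and genes past 2-fold were named. Some of these genes are not reported here. RefSeq names matched 51 of the 61 probes, and all other probes kept the name in the files. The gene and limit steps were tested on simulated data. Scalings tried beside the 75th percentile were median centring, the 75th percentile over bright probes (well above background on each array), quantile, loess (span 0.7), 8 spike-in probes and normexp (offset 50). Python 3.11.15, numpy 2.4.6, pandas 2.3.3, matplotlib 3.10.9, R 4.3.3 and limma 3.58.1 were used.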

Additional observations from a re-analysis of the deposited data

How the results depend on the processing

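Oas1a was the 1 gene of the list at least 2-fold higher under all 13 alternatives. The count of lower genes was 2 with the spike-in controls (Mx1 and Cmpk2) and with no filter on dim probes (Ifit2 and Mx1), 0 under normexp and with probes required to be well above background on both arrays, and 4 when any kept probe of a gene counted, an alternative chosen after seeing the data. The median of the list was 0.13 with median centring, -0.16 with the 75th percentile over bright probes, -0.12 with quantile normalization, -0.22 with loess, -0.30 with the spike-in controls and -0.14 with the mean of the kept probes. The share of all genes at least 2-fold higher was 1.64% with the spike-in controls, 0.855% under normexp, 1.52% with the filter on both arrays and 4.26% without a filter. The share at least 2-fold lower was 1.40% under normexp, 3.04% with the filter on both arrays, 8.50% with the mean of the kept probes and 7.91% with dim values as they stood. That share was 7.54% with the spike-in controls, 4.95% with no filter on dim probes and 6.37% when any kept probe counted. Of the values of single genes under the other 12 settings, 339 moved by less than 1 software error and 56 by more. Several of these settings leave the value of a gene measured on both arrays as it was, so the 339 is no measure of stability. The genes past 2-fold, Oas1a and Mx1, did not change sign, and the limit of Mx1 could not do so by the way limits are set. No paired analysis was possible because each age had 1 array. The number of arrays limits the precision, and signal over background limits Mx1, Ifit2, Oas3 and the dim second probes.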
